A study of Mus musculus with 9 samples.

Results

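The cell cycle and mitosis genes described here are probes chosen by their gene symbol on the array's platform. Symbols taken were those of cyclins (Ccna to Ccnl with a number), cyclin-dependent kinases (Cdk with a number), kinase inhibitors (Cdkn) and minichromosome maintenance proteins (Mcm). Centromere proteins (Cenp), Aurora and Polo-like kinases and Bub spindle checkpoint proteins were also taken, together with Cdc6, Cdc7, Cdc20, Cdc45, Cep55, Top2a and Mki67. The names, and no measured value, chose them. They were 73 of the 8841 genes that the array's 10012 probes name. Each had 1 probe, so no gene had a second probe to set beside the first. By role, 11 were cyclins, 19 kinases and genes named after them, 6 inhibitors, 12 replication genes and 25 genes of mitosis. A choice by name also takes in genes named after a partner rather than for a role in the cycle itself, such as Cdk5rap1, Cdk5rap3, Cdk5r1, Cdk5r2, Cdk2ap1, Cdk2ap2 and Mcm3ap.

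RNA of mouse lung was measured on 9 expression arrays in a study of ventilator-induced lung injury, with 3 arrays in each of 3 groups. The control group carries no treatment in the labels, which do not say how these mice were handled. The LPS group was injected with lipopolysaccharide, an outer membrane component of the bacterium E. coli, at 3 mg/kg, of the serotype given as O127:BO. The overventilation group had its lungs ventilated mechanically for 3 h at a pressure of 25 cmH2O. No time after the LPS injection is given here, so a time matched to overventilation cannot be assumed. The labels give neither strain nor age. Nor do they say that each sample is a mouse of its own, so a p-value stands against a spread that may be technical alone. This spread was estimated once per probe over all 3 groups, so the group outside a comparison also counts in its p-value. In whole lung tissue, fewer cells of a type and less RNA per cell cannot be told apart.

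A cell that divides passes from growth through DNA synthesis to mitosis, driven by cyclin-dependent kinases that are active only when bound to a cyclin and are held back by inhibitors. D cyclins with Cdk4 and Cdk6 and E cyclins with Cdk2 open the way to DNA synthesis by releasing E2F transcription factors from the retinoblastoma protein, Mcm helicases unwind the DNA at origins, and cyclin B with Cdk1, Aurora and Polo-like kinases and the centromere proteins carry out mitosis. Most cells of the adult lung are at rest, and genes that act late in the cycle are transcribed mainly in dividing cells.

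Part of this machinery is known to be switched on late in the cycle through promoter elements called the CHR, with the letters TTTGAA, and the CCAAT box, while E2F factors bind sites such as GCGGGAA. The promoters of 3 genes of mitotic entry, DNA untangling and mitotic exit are shown because they carry these letters and because their probes lay at the detection limit on 2 (Cdk1), 5 (Top2a) or all 9 (Cdc20) of the arrays. The promoter of Plk2 is shown beside them as that of the member with the highest mean difference after overventilation. Each run is the 250 bases upstream of the transcription start in RefSeq's GRCm38.p6 table, 5′ to 3′ on the gene's own strand, and capitals mark TTTGAA or CCAAT on either strand (TTCAAA and ATTGG on the reverse). Top2a, encoding the topoisomerase that untangles chromosomes, is at chr11:99024190-99024439 on the minus strand. Cdk1, encoding the kinase that starts mitosis, is at chr10:69352913-69353162 on the minus strand. Cdc20, encoding the activator of the ligase that ends it, is at chr4:118437344-118437593 on the minus strand, and Plk2, encoding a stress-induced Polo-like kinase, at chr13:110394794-110395043 on the plus strand.
Top2a: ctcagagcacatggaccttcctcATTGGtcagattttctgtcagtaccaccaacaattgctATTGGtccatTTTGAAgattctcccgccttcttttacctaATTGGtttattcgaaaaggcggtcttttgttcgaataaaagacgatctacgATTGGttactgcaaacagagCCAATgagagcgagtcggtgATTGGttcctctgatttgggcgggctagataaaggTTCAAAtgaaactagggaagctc
Cdk1: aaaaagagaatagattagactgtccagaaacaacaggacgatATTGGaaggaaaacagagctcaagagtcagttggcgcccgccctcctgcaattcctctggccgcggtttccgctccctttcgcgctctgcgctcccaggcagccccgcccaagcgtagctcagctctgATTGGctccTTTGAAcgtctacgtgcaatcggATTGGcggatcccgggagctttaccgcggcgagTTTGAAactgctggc
Cdc20: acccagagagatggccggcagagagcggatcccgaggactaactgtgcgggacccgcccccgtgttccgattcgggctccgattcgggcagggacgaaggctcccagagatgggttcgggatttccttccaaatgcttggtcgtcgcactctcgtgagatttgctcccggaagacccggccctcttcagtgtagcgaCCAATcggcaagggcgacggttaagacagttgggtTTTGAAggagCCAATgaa
Plk2: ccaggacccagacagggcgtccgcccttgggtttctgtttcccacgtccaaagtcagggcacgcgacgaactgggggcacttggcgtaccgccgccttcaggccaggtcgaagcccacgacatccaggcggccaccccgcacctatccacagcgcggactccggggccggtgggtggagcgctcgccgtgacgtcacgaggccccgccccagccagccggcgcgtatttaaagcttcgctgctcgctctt

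The runs of Top2a, Cdk1 and Cdc20 held both TTTGAA and CCAAT, and that of Plk2 held neither. A promoter was found for 64 of the 73 genes, with none listed for Ccnd2. CCAAT, on both strands, was present in 37 of these 64 (57.8%), against 36.3% of 17491 promoters of protein-coding genes. TTTGAA was present in 12 (18.8%, against 15%) and GCGGGAA in 9 (14.1%, against 4.95%). CCAAT was most frequent among the replication genes (72.7%) and the mitosis genes (66.7%) and less frequent among the kinases (47.1%), cyclins (42.9%) and inhibitors (40%, 2 of 5). It stood in 61.5% of the promoters of members that lay at the detection limit on every array and in 55.6% of those of the members tested. These are matches of letters in a window and not sites shown to be bound.

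The deposited values are ratios in which every probe had been divided by its control mean, so a value shows a difference from the controls and not a level against another gene. Each array also carries a floor, a lowest value at which undetected probes lie. Of the 73 members, 15 (20.5%) were at the floor on all 9 arrays and gave no measurement in any lung, against 19.1% of all probes. They were the cyclins Ccnd3, Ccne2 and Ccng2, the kinase genes Cdk11b and Cdk20 and the Cdk5 activator Cdk5r1, the inhibitor Cdkn2c and the phosphatase gene Cdkn3, the helicase subunit Mcm7, and the mitosis genes Aurka, Bub1, Cdc20, Cenpu, Cenpx and Plk1. A further 23 were at the floor on 2 to 8 arrays, and for 35 it was seen on at most 1 array. Tests were run on 39 members (53.4%), those above the highest of the 9 floors on at least 3 arrays or with no 2 arrays at a floor, and 57.0% of all probes passed the same filter. Ccnb1 and Plk3 were not analysed here.

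**Figure D1:**
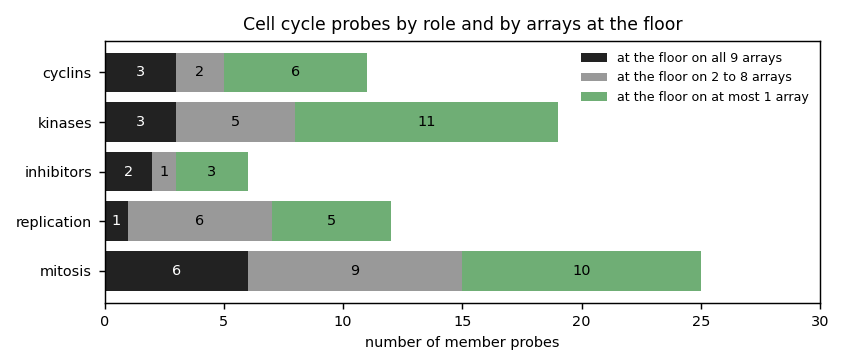
Number of member probes (horizontal axis) in each role (vertical axis), split by how many of the 9 arrays lay at the array's floor. Mitosis had 6 of 25 probes at the floor on all 9 arrays, kinases 3 of 19, cyclins 3 of 11, inhibitors 2 of 6 and replication 1 of 12.

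Among the members seen on some arrays only, the signal above the array's own floor can be given. Floors differed between arrays, at ratios from 0.709 to 2.222, so these heights show detection and are not on 1 scale across arrays. Cdk1 stood 1.17, 2.42 and 0.89 above it on the log2 scale in the controls, 2.82, 1.23 and 0 after LPS, and 0.87, 1.00 and 0 after overventilation. Cyclin A2 (Ccna2), the partner of Cdk2 and Cdk1 in DNA synthesis and early mitosis, stood at 0.90, 1.31 and 0.26, then at 1.74, 0.30 and 0, then at 0.51, 0 and 0 in the same order. Top2a stood at 0, 1.38 and 0 in the controls, 1.08, 1.02 and 0 after LPS, and 0, 0.78 and 0 after overventilation. All 3 genes were detected in at least 1 lung of every group and were at the floor in at least 1 lung of both treated groups, so the groups overlapped in detection. Cdc7, the kinase that fires replication origins, stood at 0.98, 1.41 and 0.78 in the controls, 0.55, 0.71 and 0.76 after LPS, and 0, 1.20 and 0 after overventilation. Cdc6, which loads the helicase onto origins, stood at 2.91, 0.92 and 1.03, then 1.64, 1.83 and 0.95, then 0, 1.69 and 0. For both genes overventilation arrays 1 and 3 were at the floor while overventilation array 2 lay within the range of the controls. Overventilation array 3 has the highest of the floors, so lying at it does not place a gene below the controls. Raised to that floor, control array 1 for Cdc7 and control array 2 for Cdc6 took the same value as overventilation array 3. This limit is set by array 3, and the floor of overventilation array 1 was lower, at a ratio of 0.981.

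Among the other faint members, 4 were seen on 6 or 7 arrays and the rest on fewer. Cenpw, a centromere protein, stood at 1.66, 0.27 and 0.02 in the controls, 1.25, 0.47 and 0 after LPS, and 0.34, 0.20 and 0 after overventilation. Cdk2ap1, a Cdk2-associated protein, stood at 1.67, 0.95 and 0, then 0.73, 0.98 and 0.54, then 0, 1.79 and 1.79, and Cdk18 was above the floor on 6 arrays, at 0.16 to 0.97. In all 3 genes these heights overlapped between the groups. The equal heights of Cdk2ap1 on overventilation arrays 2 and 3 stood above unlike floors. Raised to the highest floor, Cdk2ap1 lay there at 0.32 and 1.78 against the control mean. Mcm2 was seen on LPS array 2 alone, at 1.80 above the floor, and the helicase subunits Mcm5 and Mcm6 on 1 array each, at 0.41 on overventilation array 2 and 0.37 on control array 1. Aurkb, the kinase of chromosome attachment and cytokinesis, stood at 1.03 on control array 1 and 0.08 on LPS array 1 and was at the floor on the other 7. Cyclin D1 (Ccnd1) stood at 0.10 on control array 1 and at the floor on the other 8. Bub3, a spindle checkpoint protein, was above the floor on 6 arrays, at 0.48 to 1.00, including all 3 overventilation arrays and 1 of the 3 controls. Counts of members at the floor were 24, 29 and 29 on the control arrays, 25, 24 and 32 on the LPS arrays, and 32, 24 and 35 on the overventilation arrays, so the ranges of the groups overlapped.

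**Figure D2:**
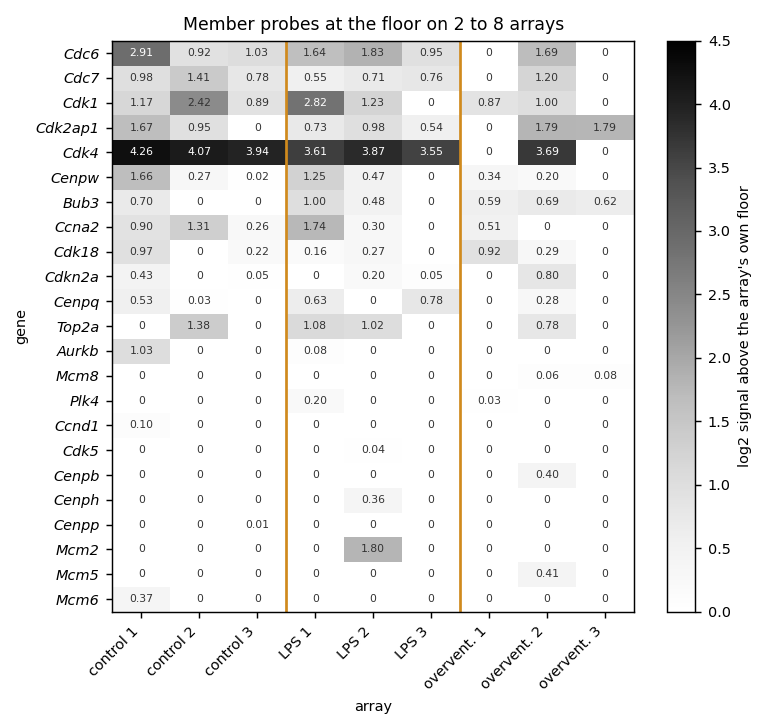
The 23 member probes at the floor on 2 to 8 arrays (rows) on each of the 9 arrays (columns), with the log2 signal above that array's own floor printed and shaded from 0 (white, at the floor) to 4.5 (black). Cdk4 lies at 3.55 to 4.26 on all arrays but overventilation arrays 1 and 3, where it is at 0; most other rows stay below 2.

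Among the 39 members tested, none passed limma at an adjusted p under 0.05 in any comparison. This was so for 0.0% of the 5710 probes tested for overventilation against control, 0.0% for LPS against control and 0.0% for overventilation against LPS. At an unadjusted p under 0.05, overventilation against control gave 3 higher members (7.69%, against 6.2% of all probes tested) and 4 lower ones (10.3%, against 8.69%). LPS against control gave 1 higher (2.56%, against 0.998%) and 1 lower (against 1.07%), and overventilation against LPS none higher (against 3.57%) and 3 lower (7.69%, against 5.94%). The shares for overventilation were thus near those of all probes. A single gene with 3 arrays against 3 cannot go below 0.1 in an exact two-sided permutation test, so the separation of the samples is given below as a description. In overventilation against control, 5 members had all 3 treated arrays above all 3 controls (12.8%, against 9.12% of all probes) and 3 had them all below (7.69%, against 10.5%). In LPS against control these counts were 2 (5.13%, against 2.24%) and 4 (10.3%, against 4.08%). Between overventilation and LPS they were 1 (2.56%, against 5.71%) and 1 (against 5.46%). Overventilation and LPS were set against the same 3 control arrays, so their differences from control are not independent. Deviations of same-numbered LPS and control arrays correlated positively, but arrays of unlike number were not compared, so pairing is not shown. Read as such pairs, 5 members were higher after LPS in all 3 (Ccnd2, Cdk14, Cep55, Mcm4 and Plk2, 12.8%, against 12.6% of all probes). Another 8 were lower in all 3 (20.5%, against 18.2%). Both shares were near those of all probes.

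As a whole the tested members lay close to the other probes. Their median log2 difference from control was 0.05 after overventilation (−0.01 for all probes) with 20 members above 0 and 19 below, and −0.16 after LPS (−0.05 for all probes) with 16 above and 23 below. Overventilation stood 0.25 above LPS at the median (0.07 for all probes). By role, the medians after overventilation were −0.26 for 6 cyclins, 0.15 for 14 kinases, −0.01 for 3 inhibitors, 0.27 for 6 replication genes and −0.06 for 10 mitosis genes. After LPS they were −0.15, 0.01, −0.44, −0.24 and −0.07. The median of the members on each array was −0.10, 0.19 and −0.08 in the controls, −0.06, −0.01 and −0.04 after LPS, and −0.37, 0.12 and 0.29 after overventilation, where the 3 arrays spread more widely than the groups differed. Differences of more than 1 on the log2 scale after overventilation were as frequent among the members (7 of 39, 17.9%) as among all probes (17.8%), and numbered 4 (10.3%, against 12.6%) without overventilation array 3. After LPS they were found in 5 (12.8%, against 6.99%), and without LPS array 2 in 2, Cep55 and Cdk5rap1 (5.13%, against 2.71%).

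**Figure D3:**
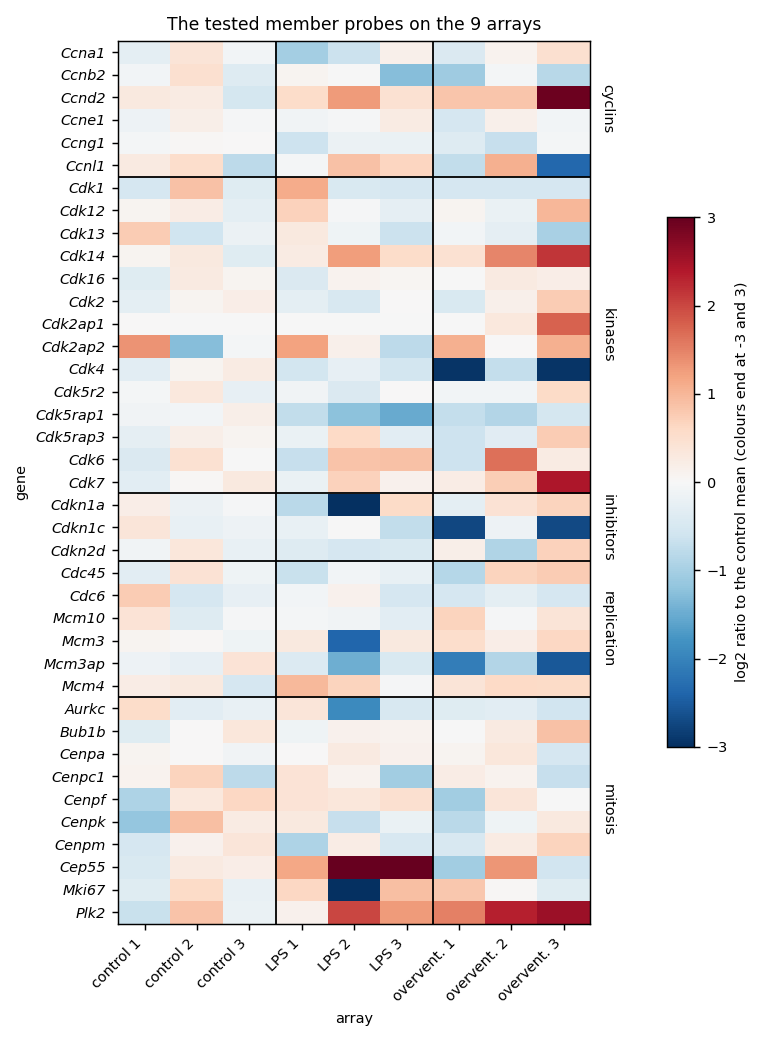
The 39 tested members (rows, by role) on the 9 arrays (columns), coloured by the log2 ratio to the control mean, with colours ending at -3 and 3. Cdk4 and Cdkn1c are dark blue on overventilation arrays 1 and 3, Cdkn1a and Mki67 on LPS array 2 alone, and Cep55 is red on the LPS arrays and Plk2 on the overventilation arrays.

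Some arrays carried lone values that bear on single members. LPS array 2 held 291 tested probes that lay more than 1.5 below all 8 other arrays on the log2 scale, against at most 41 on any other array, and Cdkn1a, Mcm3 and Mki67 were among them. Overventilation array 3 held 110 probes that lay as far above all others, against at most 6 elsewhere, with Ccnd2 and Cdk7 among them. At 139 probes, 2.43% of those tested, overventilation arrays 1 and 3 lay more than 1.5 below the other 7, and Cdk4 and Cdkn1c belonged to these. Results on these members are given with and without the arrays concerned. As markers of the tissue, the 6 listed genes of alveolar type II cells on the array, the surfactant-making cells of the lung, were all tested and none was at the floor on every array. Of the endothelial markers 3 of 6 on the array were tested, of the macrophage markers 2 of 3, of the T cell markers 3 of 6, of the neutrophil markers 4 of 6 and of the thymocyte markers 3 of 5, so these lists gave signal, while single markers in them (Cdh5, Adgre1, Cd3e and Cd8a, Mmp9 and Dntt) were at the floor on all 9 arrays.

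Cyclins bind and activate the kinases. Ccnd2, encoding cyclin D2, which couples growth signals to the start of the cycle, had the highest mean difference among them after overventilation. Its log2 ratio to the control mean was 0.29, 0.24 and −0.53 in the controls, 0.56, 1.28 and 0.45 after LPS, and 0.82, 0.82 and 2.94 after overventilation. All 6 treated lungs lay above all 3 controls, and overventilation array 3 stood apart. The mean after overventilation was 1.53 ± 1.22 (SD, n = 3) against 0 ± 0.46 in controls, 2.88-fold, and the difference did not pass limma (standard error 0.57, adjusted p = 0.26). Without overventilation array 3 it was 0.82. After LPS the mean was 0.76 ± 0.45 (adjusted p = 1), and the difference was 0.50 without control array 3 or LPS array 2.

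Ccng1, encoding cyclin G1, a target of p53, lay at −0.06, 0.05 and 0.02 in the controls, −0.62, −0.18 and −0.21 after LPS, and −0.39, −0.70 and −0.06 after overventilation. The LPS lungs were all below the controls, while overventilation array 3 overlapped them, and neither difference passed limma (−0.33 with a standard error of 0.30 and adjusted p = 1 for LPS, −0.38 and 0.597 for overventilation). Ccnb2, a mitotic B cyclin, lay at −0.07, 0.47 and −0.40, then 0.09, −0.01 and −1.29, then −1.07, −0.05 and −0.82. Ccne1, the E cyclin that works with Cdk2, stayed within −0.49 to 0.24 on all 9 arrays. Groups overlapped for both genes, and Ccna1 and Ccnl1 overlapped as well. Ccnl1, a cyclin linked to RNA splicing, had the widest spread after overventilation, at −0.73, 1.06 and −2.35.

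Among the kinases, Cdk4, the partner of the D cyclins, had the largest mean difference. It lay at −0.32, 0.07 and 0.25 in the controls, −0.54, −0.25 and −0.55 after LPS, and −2.94, −0.72 and −2.94 after overventilation. All 3 overventilated lungs were below every other lung, but arrays 1 and 3 were at the floor, so their value is a bound and only array 2 measured a level. The mean was −2.20 ± 1.28 (SD, n = 3), 4.59-fold lower than the controls, with a standard error of 0.55 and a limma adjusted p of 0.193. It was −1.83 without overventilation array 1, −1.83 without array 3, and −0.69 with an offset of 1 added to the deposited ratios in place of the floor. Without overventilation array 2 it was −2.94 and 3 members, Cdk4, Cdkn1c and Mcm3ap, passed limma as lower, among 290 probes in all (5.08% of those tested). Of the 271 probes that then passed as lower, 139 were those with low values on arrays 1 and 3 described above. Against LPS, Cdk4 after overventilation was −1.75 on the log2 scale (adjusted p = 0.494), again with no overlap.

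Cdk14, a kinase of the cell membrane that acts with cyclin Y in Wnt signalling, lay at 0.09, 0.28 and −0.37 in the controls, 0.24, 1.26 and 0.54 after LPS, and 0.45, 1.47 and 2.14 after overventilation. The overventilated lungs were all above the controls, while LPS array 1 lay within them. The mean difference was 1.35 for overventilation (standard error 0.47, 2.55-fold, adjusted p = 0.23) and 0.68 for LPS (adjusted p = 1), and neither passed limma. Cdk7, the kinase that activates other cyclin-dependent kinases, lay at 0.23, 0.74 and 2.43 after overventilation against −0.33, 0.03 and 0.29 in controls. The groups overlapped, and the difference of 1.13 was 0.48 without overventilation array 3.

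Cdk5rap1, encoding an enzyme that modifies mitochondrial transfer RNA and is named for binding the Cdk5 activator, was lower in every treated lung. It lay at −0.10, −0.08 and 0.18 in the controls, −0.73, −1.23 and −1.51 after LPS, and −0.72, −0.88 and −0.52 after overventilation. The difference was −1.16 for LPS (standard error 0.31, 95% interval −1.85 to −0.47, 2.23-fold lower) and −0.71 for overventilation (standard error 0.31, 1.63-fold lower), with limma adjusted p-values of 1 and 0.319. Leaving out any 1 array kept the LPS difference between −1.37 and −0.98. Under quantile normalization the LPS lungs still lay below all controls, but the overventilated lungs overlapped them, as the share of all probes without overlap dropped from 19.6% to 10.9%.

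The kinases that work closest to DNA synthesis and mitosis showed no such separation. Cdk1, raised to the highest floor for this comparison, which hides the signal below it given above, lay at −0.50, 0.87 and −0.37 in the controls, 1.10, −0.45 and −0.50 after LPS, and −0.50 on each overventilation array. Cdk2, the partner of E and A cyclins, lay at −0.29, 0.09 and 0.20, then −0.29, −0.49 and 0.02, then −0.47, 0.15 and 0.77. Cdk6, the second partner of the D cyclins, lay at −0.43, 0.45 and −0.02, then −0.69, 0.84 and 0.89, then −0.63, 1.64 and 0.24. Groups overlapped for these 3 genes and for Cdk12, Cdk13, Cdk16, Cdk2ap1, Cdk2ap2, Cdk5r2 and Cdk5rap3.

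Inhibitors bind the kinases or their complexes and stop them. Cdkn1a, encoding p21, the inhibitor induced by p53, lay at 0.20, −0.17 and −0.03 in the controls, −0.80, −5.21 and 0.58 after LPS, and −0.28, 0.44 and 0.66 after overventilation. The groups overlapped, and LPS array 2 lay far below all others. The LPS mean of −1.81 ± 3.02 (SD, n = 3) rested on that array, and the difference was −0.11 without it. The overventilation difference was 0.27 with a standard error of 1.16 and a limma adjusted p of 0.941. This standard error includes the LPS spread set by array 2, while the SD was 0.19 in controls and 0.49 after overventilation.

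Cdkn1c, encoding p57, lay at 0.36, −0.22 and −0.14 in the controls, −0.23, −0.01 and −0.75 after LPS, and −2.72, −0.15 and −2.70 after overventilation. Arrays 1 and 3 were low as for Cdk4, and array 2 lay among the controls, so the groups overlapped. The mean difference of −1.85 (standard error 0.63, adjusted p = 0.228) did not pass limma, and was −1.42 without overventilation array 1 and −1.43 without array 3. Cdkn2d, encoding the p19 inhibitor of Cdk4 and Cdk6, lay at −0.12, 0.33 and −0.22 in the controls and at −0.38, −0.50 and −0.46 after LPS, below all 3 controls. After overventilation it lay at 0.17, −0.89 and 0.68, on both sides of them. The LPS difference of −0.44 had a standard error of 0.41 and a limma adjusted p of 1.

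**Figure D4:**
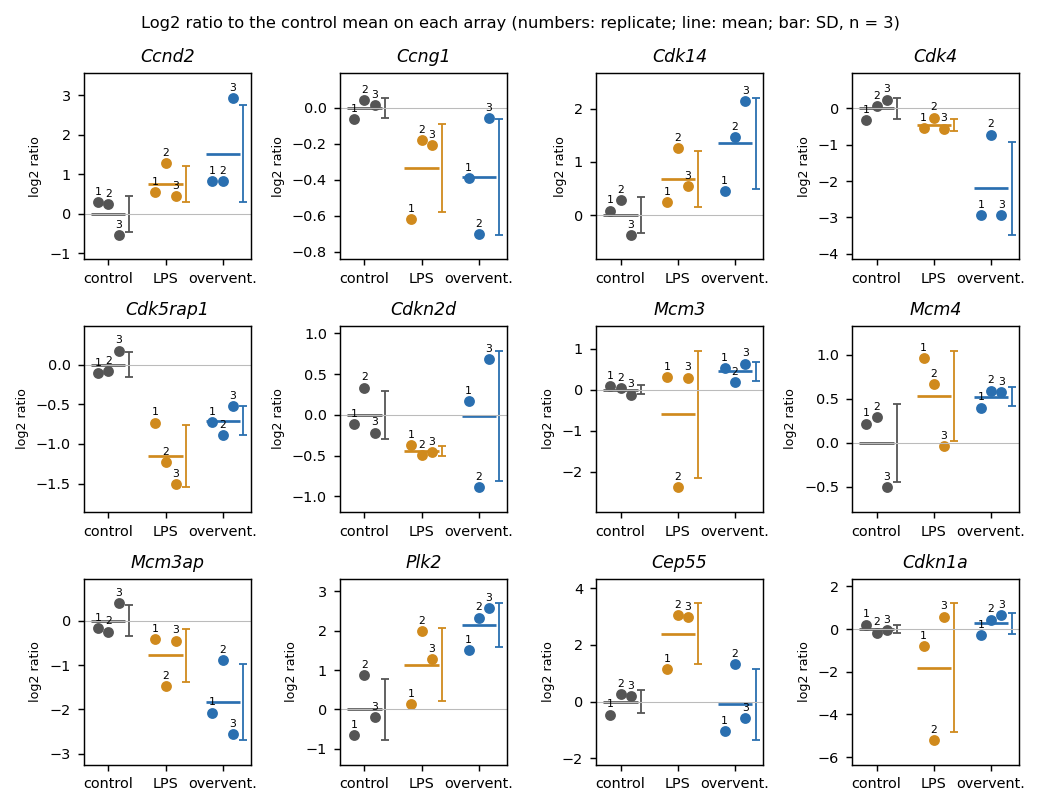
Log2 ratio to the control mean (vertical axes, each with its own range) of 12 members in the control, LPS and overventilation lungs; points are arrays with their replicate number, lines the means and bars the SD (n = 3). Plk2 and Ccnd2 lie highest after overventilation, Cep55 after LPS, Cdk4 is lowest on overventilation arrays 1 and 3, and the mean of Cdkn1a after LPS is set by array 2 at -5.21.

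Of the replication genes, Mcm3 and Mcm4, subunits of the helicase that unwinds DNA, had slightly higher values in all overventilated lungs than in all controls. Mcm4 lay at 0.22, 0.29 and −0.51 in the controls, 0.96, 0.67 and −0.04 after LPS, and 0.40, 0.59 and 0.58 after overventilation. Mcm3 lay at 0.08, 0.04 and −0.12, then 0.30, −2.39 and 0.29, then 0.52, 0.19 and 0.63. LPS lungs overlapped the controls for both genes. Read as same-numbered pairs, Mcm4 was higher after LPS by 0.74, 0.38 and 0.47. In Mcm3 the overlap came through LPS array 2 alone, without which its LPS difference turned from −0.60 to 0.30. After overventilation the differences of 0.52 for Mcm4 (adjusted p = 0.548) and 0.45 for Mcm3 (adjusted p = 0.805) did not pass limma, and that of Mcm4 was 0.27 without control array 3. The standard error of Mcm3, 0.63, includes the LPS spread set by array 2, while its SD was 0.11 in controls and 0.23 after overventilation. Under quantile normalization the separation of Mcm4 was lost and that of Mcm3 remained. The other subunits, Mcm2, Mcm5, Mcm6 and Mcm7, were too faint to be tested.

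Mcm3ap, encoding a protein of messenger RNA export that also binds Mcm3, had lower values in every treated lung. It lay at −0.16, −0.24 and 0.40 in the controls, −0.41, −1.47 and −0.45 after LPS, and −2.07, −0.88 and −2.55 after overventilation. Overventilation arrays 1 and 3 were the lowest of the 9. Under quantile normalization the LPS lungs overlapped the controls. The difference was −1.83 for overventilation (standard error 0.48, 3.56-fold lower, adjusted p = 0.193) and −0.78 for LPS (standard error 0.48, adjusted p = 1), the latter −0.43 without LPS array 2. With the offset of 1 in place of the floor they were −0.62 and −0.32. Without overventilation array 2 the former was −2.31 and passed limma, as given with Cdk4 above. Cdc45, a partner of the helicase, lay at −0.85, 0.66 and 0.77 after overventilation around controls of −0.31, 0.44 and −0.13. Mcm10, which helps to start the fork, lay at −0.05, −0.12 and −0.31 after LPS and at 0.66, −0.02 and 0.38 after overventilation. It was the only member with all overventilated lungs above all LPS lungs, and that difference of 0.50 had a limma adjusted p of 0.628.

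Among the genes of mitosis, Plk2 had the highest mean difference from control after overventilation of all 39 members. Plk2 belongs to the Polo-like kinases but acts early in the cycle and is induced by growth factors and stress. It lay at −0.66, 0.86 and −0.20 in the controls, 0.14, 2.00 and 1.28 after LPS, and 1.51, 2.33 and 2.58 after overventilation. All 3 overventilated lungs were above all controls, and LPS array 1 lay within them. The overventilation mean was 2.14 ± 0.56 (SD, n = 3) against 0 ± 0.78, 4.41-fold higher with a 95% interval of 0.89 to 3.39 on the log2 scale, and did not pass limma (adjusted p = 0.193). Leaving out any 1 array gave 1.81 to 2.57. The LPS difference was 1.14 (standard error 0.56, adjusted p = 1), and 0.71 without LPS array 2. In same-numbered pairs Plk2 was higher after LPS by 0.80, 1.14 and 1.49.

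Cep55, encoding a protein of the bridge that is cut when daughter cells part, had the highest value of any member after LPS. It lay at −0.46, 0.26 and 0.20 in the controls, 1.16, 3.05 and 2.98 after LPS, and −1.05, 1.32 and −0.58 after overventilation. The 3 LPS lungs were above all controls, whereas the overventilated lungs overlapped both groups. The LPS difference was 2.40 (standard error 0.68, 95% interval 0.88 to 3.91, 5.26-fold, limma adjusted p = 1), and 2.07 to 3.02 when any 1 array was left out. Overventilation against LPS stood at −2.50 (standard error 0.68, adjusted p = 0.494). Without overventilation array 2 it was −3.21 and passed limma, together with Cdk4 and Cdkn1c, when 3.96% of all probes passed.

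The other tested genes of mitosis, markers of dividing cells among them, overlapped between the treated and control lungs. Mki67, which codes for the proliferation antigen Ki-67, lay at −0.37, 0.58 and −0.21 in the controls, 0.62, −4.58 and 0.89 after LPS, and 0.80, 0.03 and −0.37 after overventilation. The LPS lungs overlapped the controls through array 2 alone, arrays 1 and 3 lying above all controls, and the LPS difference turned from −1.02 to 0.76 without that array (adjusted p = 1). Cenpa, the histone variant that marks centromeres, stayed within −0.50 to 0.34 on all 9 arrays. Bub1b, a spindle checkpoint protein, lay at −0.36, 0.02 and 0.34 in the controls, −0.14, 0.13 and 0.10 after LPS, and 0.00, 0.27 and 0.89 after overventilation. Cenpf, a kinetochore protein of late cycle cells, lay at −0.93, 0.32 and 0.61, then 0.42, 0.34 and 0.47, then −1.04, 0.37 and −0.02. Groups overlapped for these and for Aurkc, Cenpc1, Cenpk and Cenpm. Aurka, Bub1, Cdc20 and Plk1 were at the floor throughout, and Top2a stood 0.78 to 1.38 above it on 4 arrays. A difference between the groups could thus not be judged in these genes, and in the tested ones the number of arrays limits the precision.

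**Figure D5:**
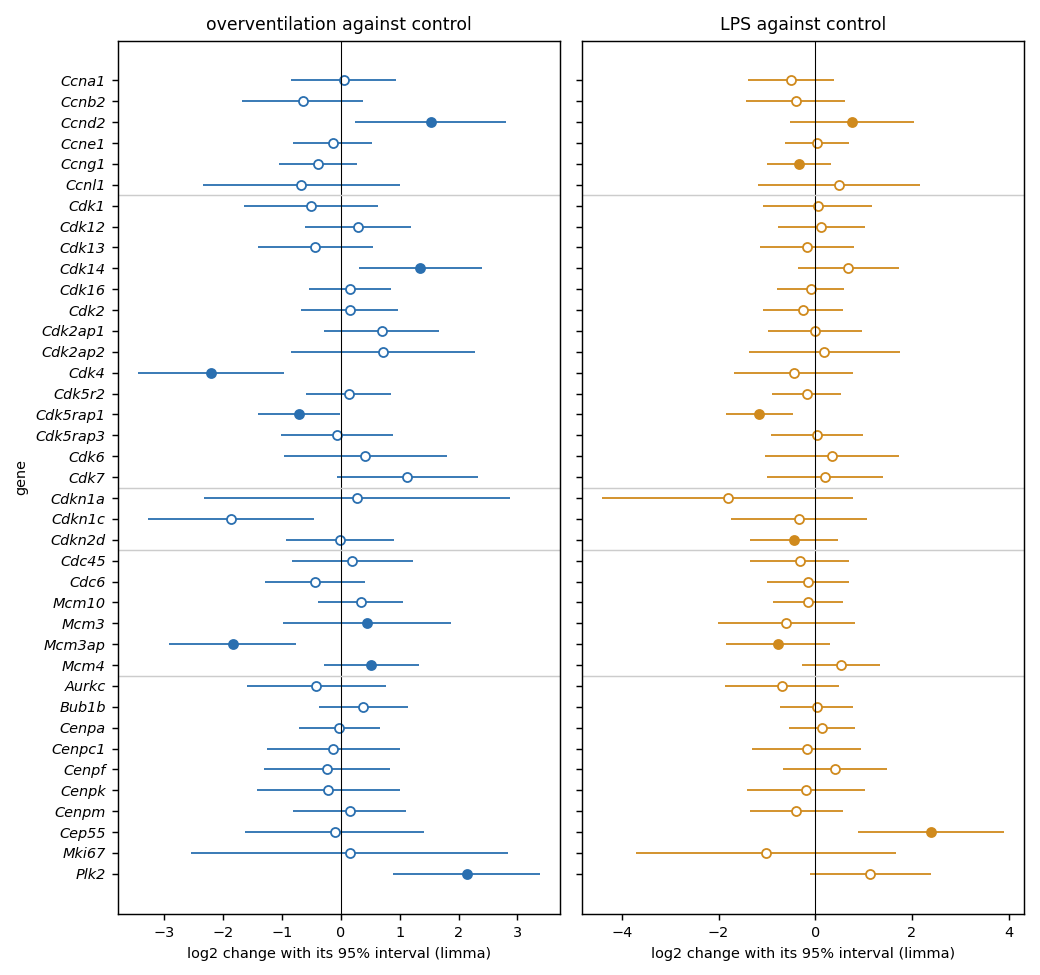
Log2 difference from control of the 39 tested members (rows, by role) after overventilation (left) and LPS (right), with the 95% interval from limma; filled points are members whose 3 treated arrays all lie above or all below the 3 controls. Most intervals include 0, Plk2 stands highest on the left at 2.14, Cdk4 lowest on the left at -2.20, and Cep55 highest on the right at 2.40.

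Members shared little variation from array to array. Over the 9 arrays the median correlation between pairs of the 39 tested members was 0.037, against 0.007 for all tested probes, and within groups it was 0.058 against 0.021. By role it was 0.147 for 14 kinases, −0.268 for 3 inhibitors, −0.018 for the cyclins, −0.008 for the replication genes and −0.056 for the mitosis genes over the 9 arrays. All pairs share the same 9 arrays, so these are descriptions. The median SD within groups was 0.597 for the members and 0.528 for all probes.

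Other genes of the cycle, in 7 lists chosen by function, gave no probe that passed limma at an adjusted p under 0.05. Counts without overlap below stand against 9.12% of all probes above and 10.5% below the controls after overventilation, and 2.24% and 4.08% after LPS. Of the E2F factors and pocket proteins, 8 of 13 on the array were tested, with a median difference of −0.22 after overventilation. None of the 8 had separate overventilation and control lungs, and after LPS 1 did, the transcription factor gene Myb with a difference of 0.32. E2f1 was near the highest floor on most arrays, at −0.20 on 6 of the 9. Of the p53 targets and checkpoint genes, 14 of 25 were tested, with a median of 0.17, and 4 of the 14 had all overventilated lungs above all controls, none below. Gadd45b and Gadd45g, stress-induced genes that slow the cycle, had the largest of these differences. Gadd45b lay at −0.29, 0.04 and 0.25 in the controls and at 0.91, 1.42 and 5.43 after overventilation, a difference of 2.59 with a limma adjusted p of 0.26, and Gadd45g at −0.21, 0.37 and −0.16 against 0.38, 1.74 and 3.66. Both had their highest value on overventilation array 3, more than 1.5 above all other arrays. After LPS, Btg1, an antiproliferative gene, was the only one of this list with separate groups, at a difference of 1.02.

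Of the growth signal genes upstream of the D cyclins, 5 of 12 were tested, with a median of 0.54, and Id3, an inhibitor of differentiation factors, lay above all controls after overventilation (0.65). Myc lay at −0.36, 0.55 and −0.19 in the controls and at 1.24, 2.16 and 0.42 after overventilation, so the groups overlapped. Of the ubiquitin ligases of the cycle, 12 of 17 were tested, with a median of −0.02, and overventilation separated Skp2, which marks p27 for destruction (0.50), and Btrc (−0.62). Of the origin licensing and DNA synthesis genes, 20 of 38 were tested, with a median of −0.28, and 1 of the 20 lay above and 4 below all controls after overventilation. Dbf4, the activator of Cdc7, lay at 0.12, 0.45 and −0.56 in the controls and at 1.23, 0.78 and 2.08 after overventilation. Pold1, the catalytic subunit of DNA polymerase delta, lay at 0.24, 0.10 and −0.34 against −1.82, −2.05 and −1.67, and at 0.29, −1.67 and −2.21 after LPS. The lowest of this list was the origin protein gene Orc4 at −2.47, another probe with low values on overventilation arrays 1 and 3.

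Of the other mitosis genes, 14 of 31 were tested, with a median of −0.07. Stmn1, a microtubule-destabilising protein, lay above all controls after overventilation (1.39, with 2.63 on array 3), and Ncapd2 of the condensin complex (−1.98) and Ranbp1 (−1.85) below them. Both were lowest on overventilation arrays 1 and 3, with Ncapd2 at −3.09, −0.71 and −2.13 and Ranbp1 at −1.77, −0.55 and −3.23 on the 3 arrays. Of the cyclins and kinase partners with other names, 8 of 10 were tested, with a median of −0.41, with Ccnc above all controls (0.48) and Ccni (−1.69) and Ccnt1 (−0.71) below. Ccni was also lowest on overventilation arrays 1 and 3, at −2.26 and −1.91 against −0.91 on array 2. Neither of these lists, nor those of growth signals, ligases and DNA synthesis, had a gene with separate LPS and control lungs.

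Markers of blood cells, which can divide or bring cell cycle transcripts into the lung, are given for comparison. Of the neutrophil list 4 of 6 genes on the array were tested, with medians of 0.51, −0.61 and 0.06 in the controls, −0.24, −0.52 and −0.88 after LPS, and −0.15, −1.04 and −0.74 after overventilation. The medians of 3 T cell genes tested of 6 on the array were −0.51, 0.37 and −0.13, then 0.72, −0.08 and 0.17, then −0.03, −0.01 and −0.49. Those of 3 B cell genes of 4 were −0.37, 0.28 and −0.13, then 0.23, 0.37 and 0.07, then −0.24, −0.04 and −0.08. The ranges of these medians in both treated groups overlapped those of the controls for all 3 lists. In the B cell list the LPS medians all lay above the overventilation medians. Csf3r of the neutrophil list (−0.92) lay below all controls after overventilation and Cd3d of the T cell list (0.72) above them after LPS. In the other lists of cells that can divide or enter the lung, Rag2 (−0.66) and Cd1d1 (−1.30), 2 of the 3 thymocyte genes tested, lay below all controls after overventilation. Of the 2 macrophage genes tested, Lyz2 (2.56, with 4.77 on array 3) lay above them, while Chil3 (−1.10) overlapped them. Of the 3 adipose genes tested, a sign of fat in the tissue, Adipoq and Retn lay below all controls after LPS at −3.32 and −2.09, and Retn also after overventilation at −2.21. Control array 3 was itself low, at −1.66 for Adipoq and −1.895 for Retn, near LPS array 3 at −1.93 and −1.949. Adipoq had a lone low value of −5.28 on LPS array 2. Retn took the same floor value on all 3 overventilation arrays, so −2.21 is a bound. The part of such cells in the values of the members was not tested.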

How the data were processed

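RNA of 9 mouse lung samples was measured on arrays, in 3 groups of 3. The deposited values are ratios on a linear scale. Tested on the values themselves, the authors' table has each probe divided by the geometric mean of its 3 control arrays (largest deviation of the log2 mean from 0, 2.5e-09). Array maker, dyes, earlier processing and scaling between arrays are not stated in the labels or file headers. Fixed-pattern lowest values (tolerance 1e-06 on the log2 scale) at 4690 probes gave each array's floor, at ratios from 0.709 on control array 1 to 2.222 on overventilation array 3. Known levels were raised to the highest floor (1.15 on the log2 scale, so smaller differences near it are understated) and set to the control mean again, with no further normalization. The plan assumed intensities and its test was kept.

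Probes above that floor on at least 3 arrays, or with no 2 arrays at a floor, were tested (5710 of 10012) in R 4.3.3 with the limma package, version 3.58.1 (a linear model of the 3 groups, eBayes, two-sided) and Benjamini-Hochberg adjustment over all of them, at 0.05. The script was tested on simulated data. Symbols came from the platform's annotation (8983 probes with 1 symbol, 1 with several, 1028 with none), and all 73 gene IDs were found in the reference table. The members and lists were chosen with earlier results of these data known. Named with values were, per role and direction, up to 3 members with the largest differences from control among those without overlap of the groups, and key genes fixed by name, with up to 2 genes per direction in each functional list. Others named, chosen after their values were seen, are Cdk7, Cdkn1c, Ccnl1, Mcm10, Cdc45, Cdc6, Cdc7, Bub3, Bub1b, Cenpf, Cenpw, Cdk2ap1, Cdk18, Cdk6, E2f1 and Myc. Single cell type markers given with values were picked from fixed lists after these values were seen. The labels number the samples of each group. Deviations of same-numbered arrays from their group means correlated at 0.497, 0.247 and 0.199 for LPS and control. The values were 0.508, 0.133 and 0.033 for overventilation and control, and 0.496, 0.211 and 0.038 for overventilation and LPS. Arrays of unlike number were not compared, so these values do not show that the numbers mark pairs. Alternatives were no filter, quantile normalization, an offset of 1, a lower common floor without overventilation array 3, each array left out and the replicate number as a block.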

Additional observations from a re-analysis of the deposited data

How the results depend on the processing

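With the replicate number of the labels as a replicate block, 0 members were called in each of the 3 comparisons, as without it, and the same held with no filter, quantile normalization, the offset of 1, and the lower common floor of the 8 arrays left without overventilation array 3, which sets the highest floor. Leaving out 1 array gave 0 to 3 called members for overventilation against control, 0 for LPS against control and 0 to 3 for overventilation against LPS; all 3 calls came without overventilation replicate 2, which leaves the 2 arrays with low values in common. Members without overlap numbered 9 to 12 for overventilation against control with 1 array left out (8 with all), 7 to 12 for LPS against control (6 with all) and 3 to 11 for overventilation against LPS (2 with all). Groups of 2 arrays overlap less often by construction, and the share of all probes grew too, from 19.6% to between 24.7% and 34.8% for overventilation against control, from 6.32% to between 12.3% and 26.1% for LPS against control, and from 11.2% to between 14.1% and 27.4% for overventilation against LPS. With no filter the median difference of the members between overventilation and LPS was 0, since most probes added lie at the floor. Of 168 alternative values for the 14 results on named members, 166 kept their direction and side of the threshold, 2 passed it (Cdk4 and Mcm3ap without overventilation replicate 2), none was reversed, and 21 differed by over 1.5 times. Of these, 13 came with the offset of 1, which by construction shrinks differences of ratios near 1. Setting lone low values to missing was an alternative chosen after seeing the data, and it gave 0 called members in each comparison, with Mcm3 and Mki67 added to the members without overlap for LPS against control (8 in place of 6). Members near the floor, and the 34 not tested, are limited by signal over background.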
